A study of Mus musculus with 22 samples.

Results

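The clustered protocadherins are 3 neighbouring groups of cell-surface genes, alpha, beta and gamma, and their transcripts were followed in the mouse retina and choroid after a laser burn. Members were the protein-coding rows of the deposited count tables whose symbols carry the cluster prefixes Pcdha, Pcdhac, Pcdhb, Pcdhga, Pcdhgb and Pcdhgc. There were 57 of 54532 rows, with 14 in the alpha cluster, 22 in the beta cluster and 21 in the gamma cluster. A filter on low counts left 52 for testing in each table, 11 alpha, 21 beta and 20 gamma.

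The samples were retina and choroid dissected together, sequenced as bulk RNA, from adult mice whose eyes were burned with a laser to set off CNV, short for choroidal neovascularisation, in which vessels of the choroid grow toward the retina. The wild-type set (C57BL/6J) had 4 control libraries without CNV and 4 libraries for each of 3 times after the laser, day 3, day 7 and day 14. The second set had 3 libraries of Rag2-/- mice, which lack T and B cells, and 3 of Rag2-/-γc-/- mice, which also lack the common gamma chain and with it natural killer cells. Both genotypes of the second set were lasered and taken at day 3, so that set has no unlasered library, and the strain background of these mice is not given in the labels. The exact ages are not given either. The treatment protocol speaks of 6 to 8 mice, and the labels do not say whether a library is 1 eye, 1 animal or a pool. P-values therefore measure only the spread between these libraries. Control replicate 4 is titled as without CNV but carries a laser treatment tag. It was kept as a control, and every comparison with control was repeated without it.

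Clustered protocadherins are cadherin-like adhesion proteins that bind identical copies of themselves on a facing membrane. Each neuron switches on a small, partly random set of them by choosing among many promoters, a choice that depends on DNA methylation and on DNA loops held by CTCF and cohesin. The set acts as an identity tag, by which branches of one neuron recognise and avoid each other, as starburst amacrine cells of the retina do through the gamma cluster. Alpha and gamma transcripts join a variable exon, particular to the isoform, to constant exons shared by the whole cluster, whereas each beta gene is a single-exon unit without such a shared end. The C-type isoforms (Pcdhac1, Pcdhac2, Pcdhgc3, Pcdhgc4 and Pcdhgc5) stand at the ends of the alpha and gamma clusters and are used more widely than by random choice.

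All 57 genes lie on the plus strand of chromosome 18 on mm10. The alpha cluster runs from 36930184 to 37187661, the beta cluster from 37264938 to 37524479 and the gamma cluster from 37661793 to 37841873. In the alpha cluster a median of 46.55% of a gene's exon bases belonged to no other member, and in the gamma cluster 55.4%, because the constant exons are shared. Of a beta gene's exon bases, 90.3% to 100% belonged to no other member. Genes outside the members overlap some of these bases, so that Pcdhb12 had 1107 of 3034 in no other annotated gene. How reads in the shared exons were counted was not tested. Pcdha4, with 404 exon bases in no other annotated gene, had 0 to 7 counts per wild-type library. Pcdhga10, with 0 such bases, had 0 counts in every control and 0 to 1 at day 3. These 2 rows, Pcdha8, Pcdhb1 and a second Pcdha11 row (ENSMUSG00000102206) did not pass the filter. The Pcdha11 row that did (ENSMUSG00000007440) starts 117 bases before the RefSeq start of Pcdha10, and is called Pcdha11 here as deposited. Near-identical stretches could blur neighbours. Up to 23.4% of the 50-base windows of an alpha variable exon recurred in another member, up to 12% in the beta cluster and up to 16.8% in the gamma cluster, but 0% in the C-type isoforms.

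Library depth was 15033983 to 16848254 counts in the wild-type set and 27227847 to 30315086 in the Rag2 set. The 57 members together held 2858 to 6493 counts of a wild-type library. In controls the rod genes summed to 62300 to 70300 CPM, the level of a gene scaled to library size, and the pigment epithelium genes to 2720 to 3860. Lens genes took 0.0207% to 1.43% of control counts but up to 13.3% in lasered libraries (day 14 replicate 1), and cornea and conjunctiva genes 0.267% to 0.827% and up to 3.27% (day 3 replicate 3). Comparisons were repeated with 3 libraries left out at once, replicate 3 of day 3, replicate 2 of day 7 and replicate 1 of day 14, which were doubted from an earlier look at these data.

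In undamaged eyes, levels per kilobase of exon bases in no other annotated gene were highest for a C-type gamma isoform. Pcdhgc3, which binds the Wnt pathway protein Axin1, stood at 10.5 CPM per kilobase in control, and Pcdhgc4, the gamma isoform that neurons need to survive, at 6.18. Pcdhgc3 had 1821 such bases but 3380 in no other member, so its first place depends on which bases are used. Pcdhga4 had 6.56 CPM per kilobase, and the leading beta genes Pcdhb20 and Pcdhb17 had 5.9 and 4.91. Pcdhac2, which spaces out serotonergic axons in the brain, led the alpha cluster with 4.16. Cluster medians were 0.895 CPM per kilobase for alpha, 1.81 for beta and 2.58 for gamma. Pcdha1, among the scarce alpha isoforms, was at 0.454 CPM per kilobase.

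After the laser the 3 clusters parted. The summed alpha level was 36.9 ± 0.777 CPM in control (SD, n = 4), 10.9 ± 3.84 on day 3, 10.2 ± 4.1 on day 7 and 12.9 ± 6.32 on day 14. The 4 controls lay between 35.8 and 37.5 CPM, and the 12 lasered libraries between 5.62 and 20.3, with no overlap. The summed gamma level was 163 ± 6.02 CPM in control (SD, n = 4), 89 ± 19.5 on day 3, 80.1 ± 21.8 on day 7 and 90.6 ± 23.4 on day 14. Here too no lasered library, at 52.2 to 110 CPM, reached the lowest control, at 155. The summed beta level was 197 ± 6.78 CPM in control (SD, n = 4), 162 ± 31.1 on day 3, 159 ± 35.1 on day 7 and 181 ± 25.1 on day 14. Beta sums overlapped with the controls (189 to 206 CPM) at every time but were lower on average. As log2 ratios of group means, alpha stood at -1.75, -1.86 and -1.52 at days 3, 7 and 14, gamma at -0.87, -1.03 and -0.85, and beta at -0.28, -0.31 and -0.12. These sums include the members that failed the filter.

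**Figure D1:**
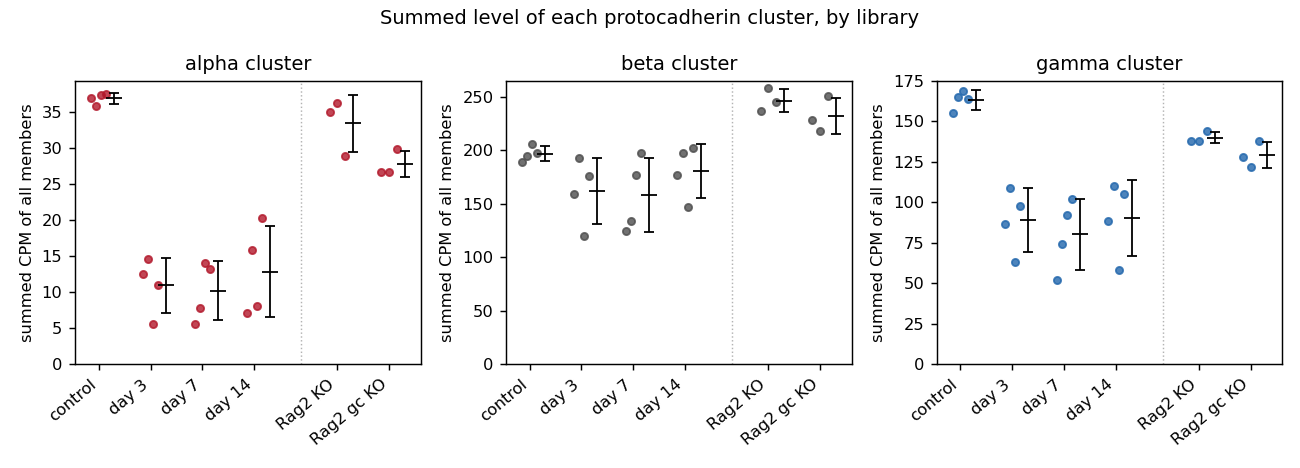
Summed CPM of all members of the alpha, beta and gamma clusters in every library (vertical axes start at 0), by group, with the mean and SD as a bar and whiskers. The dotted line parts the wild-type table from the Rag2 table, which were scaled separately. Lasered wild-type libraries lie at 5.62 to 20.3 CPM for alpha against 35.8 to 37.5 in controls, while beta overlaps.

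The order of the clusters held within single libraries. The alpha sum was 18.2% to 19.5% of the beta sum in the controls, and 4.67% to 7.88% on day 3, 4.51% to 7.93% on day 7 and 4.04% to 10.1% on day 14. The gamma sum was 81.8% to 84.5% of the beta sum in the controls, and 52.4% to 56.2%, 41.9% to 55.4% and 39.5% to 55.5% at the 3 times. No lasered library reached a control in either ratio. Both ratios compare genes within a library and do not depend on how libraries were scaled.

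**Figure D2:**
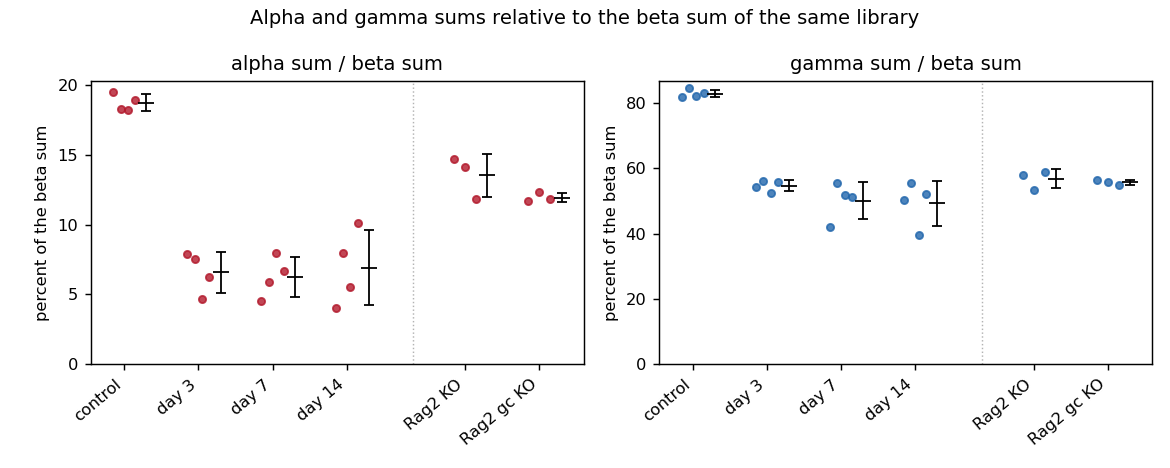
Alpha sum (left) and gamma sum (right) as a percent of the beta sum of the same library, with mean and SD per group. Wild-type controls sit at 18.2% to 19.5% for alpha and 81.8% to 84.5% for gamma, above all 12 lasered wild-type libraries.

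At day 3, edgeR called 18 of the 52 tested members lower and 0 higher at an adjusted p under 0.05, beside 7.77% of all tested genes called lower and 6.97% called higher. The called members were 9 of 11 alpha, 1 of 21 beta and 8 of 20 gamma genes. Median log2 fold changes were -1.79 for alpha, -0.26 for beta and -0.80 for gamma, beside 0.01 for all tested genes. Each of the 11 tested alpha genes had every day 3 library below every control, as did 4 of 21 beta and 13 of 20 gamma genes, beside 22.8% of all tested genes. Of the alpha genes, Pcdha1, Pcdha6 and Pcdhac1 passed the filter through the controls only, so their lower level after the laser is in part a condition of being tested. With no filter on low counts edgeR called 13 members at day 3, 8 alpha, 1 beta and 4 gamma. Shares of all tested genes are given only for the edgeR fit over all libraries, not for alternatives or left-out libraries.

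At day 7 the picture was close to that of day 3. edgeR called 17 members lower and 0 higher, 8 alpha, 1 beta and 8 gamma, beside 6.9% of all tested genes called lower and 3.62% called higher. Every day 7 library was below every control for 11 alpha, 4 beta and 16 gamma genes, beside 18.4% of all tested genes. Medians were -1.93 for alpha, -0.32 for beta and -0.97 for gamma. Between day 7 and day 3, edgeR called 0 of 52 members, beside 0% of all tested genes, and 1 member, Pcdhgb5, had an unadjusted p under 0.05. DESeq2 and limma voom also called 0 there. At day 14 edgeR called Pcdhb2 alone, beside 0.241% of all tested genes called lower and 0.0322% called higher. At an unadjusted edgeR p under 0.05 there were 24 members, a cut for which the share of all tested genes is not given here. DESeq2 called 19 members lower at day 14, and limma voom 1. The shares of all tested genes that these 2 methods called are not given here, so neither count can be called particular to the members. Medians at day 14 were -1.51 for alpha, -0.11 for beta and -0.80 for gamma. Of the alpha genes 10 of 11 still had every day 14 library below every control, as did 1 beta and 13 gamma genes, beside 12.8% of all tested genes. Between day 14 and day 3 edgeR, DESeq2 and limma voom each called 0 members, beside 0.00536% of all tested genes called by edgeR, and 0 members had an unadjusted edgeR p under 0.05. Days 3, 7 and 14 share their 4 controls, so the 3 comparisons are not independent of each other. Alpha medians and counts at days 7 and 14 include Pcdha1, Pcdha6 and Pcdhac1 among the tested genes. These passed the filter through the controls only.

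**Figure D3:**
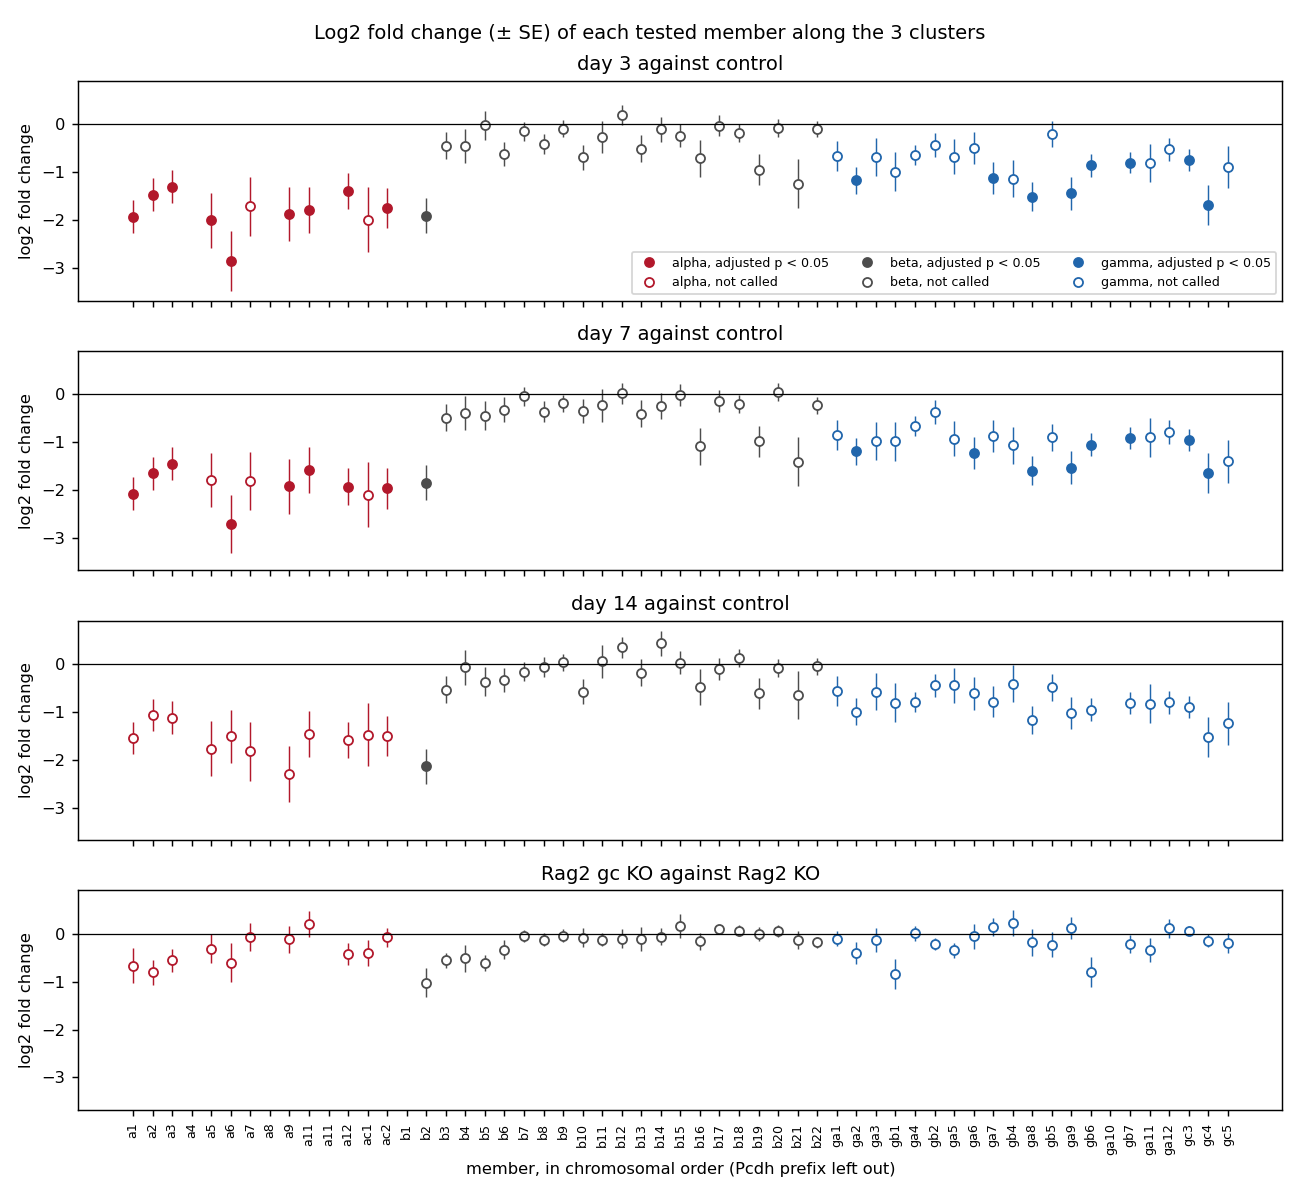
Log2 fold change with its SE (edgeR) of each tested member in chromosomal order, in 4 panels: day 3, day 7 and day 14 against control, and Rag2-/-γc-/- (written Rag2 gc KO) against Rag2-/- (Rag2 KO). Filled points passed an adjusted p under 0.05, and ticks without a point are members that failed the filter. Alpha points lie between -2.85 and -1.30 at day 3. The lowest, Pcdha6, passed the filter on low counts through the controls only. Beta points lie between -1.90 and 0.19 at day 3, the lowest of them Pcdhb2.

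The number of calls moved with single libraries. Whether calls over all tested genes moved alike is not given here. At day 3 edgeR called 8, 4, 2 and 5 members without control replicates 1, 2, 3 and 4 in turn. It called 10, 17, 3 and 7 without day 3 replicates 1, 2, 3 and 4. At day 7 the same steps gave 11, 7, 2 and 9 for the controls and 5, 2, 18 and 26 for the day 7 replicates. At day 14 the count was 0 without control replicate 1, 2, 3 or 4 or day 14 replicate 3, 1 without day 14 replicate 1 or 2, and 2 without day 14 replicate 4. Gene by gene, out of 8 such runs a comparison, Pcdha1 kept its call in 8 at day 3 and 8 at day 7, Pcdhb2 in 8 and 6, and Pcdhga8 in 7 and 7. Pcdha1 and Pcdha6 passed the filter on low counts only through the controls, so a kept call of theirs is in part a condition of being tested. Pcdha6 kept its call in 6 and 5, Pcdhac2 in 4 and 6, Pcdhga9 in 5 and 4, Pcdha2 in 3 and 5 and Pcdhga2 in 3 and 3. Pcdha12 kept it in 2 and 7, Pcdhgc4 in 2 and 2, Pcdha11 in 2 and 1, Pcdhgb6 in 1 and 4, Pcdha3 in 1 and 2 and Pcdhgb7 in 1 and 2. The day 3 calls of Pcdha9, Pcdhgc3 and Pcdhga7 were kept in 0 of 8 runs and that of Pcdha5 in 1, and the day 7 calls of Pcdhgc3, Pcdha9 and Pcdhga6 in 3, 2 and 2. Over the same runs the summed alpha log2 ratio stayed between -1.93 and -1.54 on day 3, between -2.05 and -1.66 on day 7 and between -1.83 and -1.32 on day 14. With replicate 3 of day 3, replicate 2 of day 7 and replicate 1 of day 14 left out at once, edgeR called 19, 21 and 7 members at days 3, 7 and 14.

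Pcdhac2 carried the most counts of any alpha gene. Its level was 12.7, 11.1, 12.5 and 14.0 CPM in the 4 controls, 3.79, 5.24, 1.79 and 4.16 on day 3, 0.884, 2.83, 4.38 and 4.72 on day 7 and 3.24, 4.92, 2.78 and 6.74 on day 14. Every lasered library was below every control. The log2 fold change was -1.74 ± 0.42 on day 3 (SE, edgeR adjusted p = 0.0229), -1.97 ± 0.43 on day 7 (edgeR adjusted p = 0.018) and -1.51 ± 0.42 on day 14 (edgeR adjusted p = 0.0784, not called). Its share of the alpha sum was 34.1% ± 2.54 in control, 33.9% ± 3.54 on day 3, 29.7% ± 9.57 on day 7 and 35.9% ± 6.46 on day 14 (SD, n = 4). The shares overlapped between the groups. The alpha isoforms other than the C-types summed to 22.7 ± 1.03 CPM in control and 6.79 ± 2.33, 6.61 ± 2.24 and 7.87 ± 4.08 at the 3 times (SD, n = 4). Pcdhac1, the other alpha C-type isoform, was at 1.6 ± 0.535 CPM in control and 0.395 ± 0.183 at day 3 (SD, n = 4) and did not pass at any time (edgeR adjusted p = 0.0581, 0.0604 and 0.184).

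Pcdha6 had the lowest fitted log2 fold changes of the tested members at day 3 and day 7, but it and Pcdha1 passed the filter on low counts only through the controls, so a lower level after the laser was in part a condition of being tested. Pcdha6 stood at 1.61, 1.9, 2.6 and 2.53 CPM in the controls, 0.428, 0.482, 0.198 and 0.0594 on day 3, 0.0632, 0.257, 0.414 and 0.552 on day 7 and 0.216, 1.11, 0.302 and 1.36 on day 14. These levels rest on 26 to 41 counts per control and 1 to 21 counts per lasered library. The highest lasered values, of 2 day 14 libraries, came close to the lowest control without reaching it. The log2 fold change was -2.85 ± 0.62 on day 3 (SE, edgeR adjusted p = 0.0162), -2.71 ± 0.61 on day 7 (edgeR adjusted p = 0.0206) and -1.51 ± 0.56 on day 14 (edgeR adjusted p = 0.132). Pcdha1, the first promoter of the cluster, had the smallest p of the members at day 3, at -1.93 ± 0.35 on the log2 scale (SE, edgeR adjusted p = 0.00905). Its control level was 1.13 ± 0.318 CPM and its day 3 level 0.292 ± 0.0491 (SD, n = 4).

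The other alpha isoforms, which differ mainly in the adhesive part that the variable exon encodes, followed at lower count. Pcdha2, Pcdha3, Pcdha9, Pcdha11 and Pcdha12 were called at both day 3 and day 7, with log2 fold changes of -1.87 to -1.30 at day 3 and -1.93 to -1.45 at day 7. Most of these calls end when 1 library is left out, that of Pcdha9 at day 3 in each of the 8 runs. Pcdha5 was called lower at day 3 (edgeR adjusted p = 0.0357), and at day 7 its log2 fold change was -1.79 (edgeR adjusted p = 0.0549, not called). Pcdha7, the remaining tested alpha gene, was at -1.71 and -1.81 and was called at neither time. Pcdha2, for example, was at 1.98 to 2.55 CPM in the controls, 0.529 to 1.1 on day 3, 0.65 to 0.858 on day 7 and 0.603 to 1.75 on day 14. Pcdha9 was at 2.62 to 4.2 CPM in the controls, 0.132 to 1.35 on day 3, 0.442 to 1.36 on day 7 and 0.216 to 1.17 on day 14. Neither gene's lasered libraries overlapped with its controls.

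Pcdhb2 was the only beta gene called against control at day 3, day 7 or day 14. It was at 2.59, 3.01, 2.66 and 2.73 CPM in the controls, 0.673, 0.542, 1.06 and 0.653 on day 3, 0.884, 0.386, 0.591 and 1.16 on day 7 and 0.433, 0.761, 0.302 and 0.972 on day 14. No lasered library came near the controls, and the 3 times overlapped. It fell by 1.90 on the log2 scale on day 3 (SE 0.36, edgeR adjusted p = 0.0112), by 1.85 on day 7 (SE 0.36, edgeR adjusted p = 0.0122) and by 2.14 on day 14 (SE 0.37, edgeR adjusted p = 0.0332). The day 14 call was lost with library totals, a replicate block or only the 2 groups compared (edgeR adjusted p = 0.0551, 0.0705 and 0.178). It was also lost without control replicate 1, 2, 3 or 4 or day 14 replicate 3 (edgeR adjusted p up to 0.148). Its gene (37294812 to 37297624) is near the alpha end of the beta cluster, next to Pcdhb1, which is too scarce to test. Other beta genes were lower without being called. Log2 fold changes at days 3 and 7 were -1.24 and -1.41 for Pcdhb21, -0.95 and -0.99 for Pcdhb19 and -0.71 and -1.09 for Pcdhb16. Pcdhb21 and Pcdhb19 had every day 3 and day 7 library below every control. Of the 21 tested beta genes, 1 was above 0 at day 3 and 2 at day 7. Whether Pcdhb2 differs from single other members was not tested.

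The 3 most abundant beta genes overlapped with their controls at every time, with single lasered libraries well below the control range. Pcdhb20 was at 19.6 to 23.6 CPM in the controls and at 15.1 to 26.0, 18.1 to 25.8 and 14.1 to 24.1 at days 3, 7 and 14. Pcdhb17 was at 20.4 to 27.4 CPM in the controls and at 18.9 to 25.9, 12.8 to 26.2 and 13.9 to 26.8, and Pcdhb22 at 18.7 to 22.3 and then 16.7 to 21.2, 13.1 to 21.3 and 15.6 to 26.3. Their log2 fold changes were small, for Pcdhb20 -0.08 ± 0.19, 0.05 ± 0.19 and -0.09 ± 0.19 at the 3 times (SE), and not called (edgeR adjusted p = 0.759, 0.869 and 0.784). Over all tested beta genes the log2 fold change at day 3 ran from -1.90 for Pcdhb2 to 0.19, with 20 of 21 below 0, beside 49.3% of all tested genes. At day 14, 15 of 21 were below 0, beside 46.4%. Pcdhb19, at a mean of 13.8 CPM in control, had every day 3 and day 7 library below every control.

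**Figure D4:**
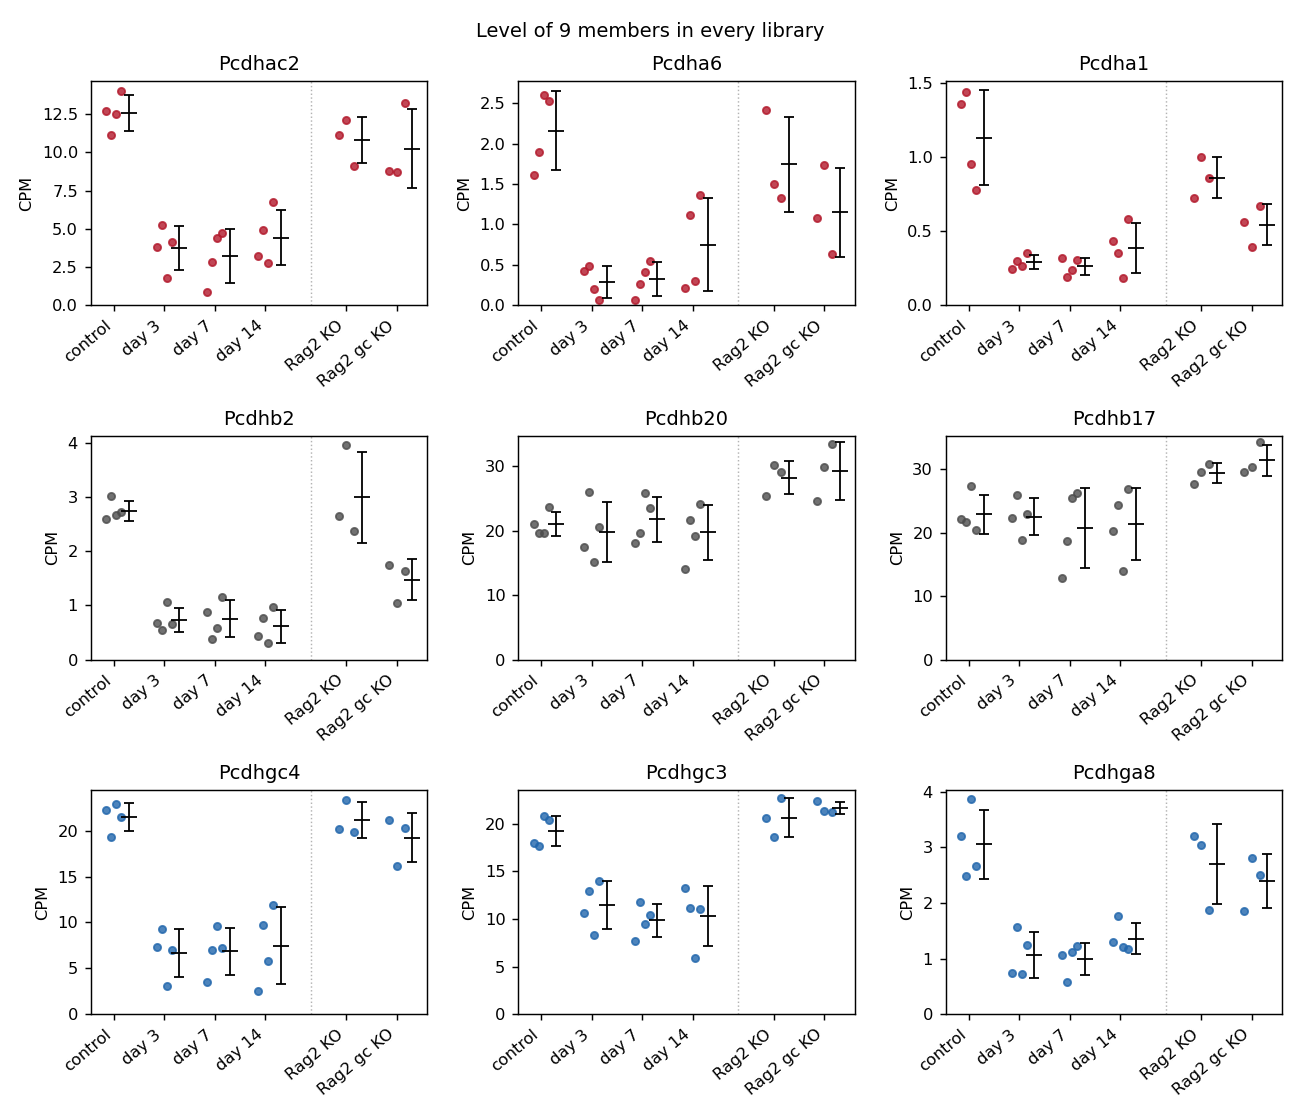
CPM of 9 members in every library (vertical axes start at 0), with mean and SD per group. Pcdhac2, Pcdha6, Pcdha1, Pcdhb2, Pcdhgc4, Pcdhgc3 and Pcdhga8 have every lasered wild-type library below every control, and Pcdhb20 and Pcdhb17 overlap. Pcdha6 and Pcdha1 passed the filter on low counts through the controls only, so their lower level is in part a condition of being tested.

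In the gamma cluster the C-type isoforms differed in size. Pcdhgc4 was at 22.3, 19.3, 22.9 and 21.5 CPM in the controls, 7.34, 9.34, 3.04 and 6.95 on day 3, 3.47, 7.01, 9.64 and 7.23 on day 7 and 2.52, 9.72, 5.79 and 11.9 on day 14. All 12 lasered libraries were below the controls, and the lowest was day 14 replicate 1. It fell by 1.69 on the log2 scale on day 3 (SE 0.42, edgeR adjusted p = 0.0242) and by 1.65 on day 7 (SE 0.42, edgeR adjusted p = 0.0281), and on day 14 stood at -1.52 (edgeR adjusted p = 0.0781). Pcdhgc3 was at 18.0, 17.7, 20.8 and 20.4 CPM in the controls, 10.6, 12.9, 8.33 and 14.0 on day 3, 7.7, 11.8, 9.52 and 10.4 on day 7 and 13.2, 11.2, 5.85 and 11.0 on day 14. It too had no lasered library in the control range, but its log2 fold changes were smaller, -0.75 ± 0.23, -0.96 ± 0.23 and -0.90 ± 0.23 (SE, edgeR adjusted p = 0.0419, 0.0221 and 0.0699), and its day 3 call was lost in each run that left out 1 library. Pcdhgc5, which associates with a GABA receptor subunit at synapses, was at 5.8 ± 0.621 CPM in control and 2.19 ± 0.956 at day 7 (SD, n = 4), and did not pass at any time.

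As a share of the gamma sum, Pcdhgc4 held 13.2% ± 1.12 in control, 7.25% ± 1.76 on day 3, 8.42% ± 1.83 on day 7 and 8.22% ± 3.72 on day 14 (SD, n = 4). Controls lay at 11.7% to 14.4% and lasered libraries at 2.85% to 11.3%. Pcdhgc3 held 11.8% ± 0.785 in control and 12.9% ± 1.09, 12.8% ± 2.97 and 11.4% ± 2.33 at the 3 times, with overlap throughout. Within the cluster, then, the 2 isoforms of highest share in control took different courses, Pcdhgc4 below its control share in every lasered library and Pcdhgc3 not. The size of that gap was not tested.

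Of the gamma A and B isoforms, which are picked by promoter choice, Pcdhga2, Pcdhga8, Pcdhga9, Pcdhgb6 and Pcdhgb7 were called at both day 3 and day 7. Pcdhgb6, the most abundant of these, was at 12.4 to 13.7 CPM in the controls, 5.82 to 8.19 on day 3, 3.73 to 7.72 on day 7 and 4.04 to 8.04 on day 14, with no overlap. Pcdhga2 was at 8.28 to 10.4 CPM in the controls and at 2.51 to 5.55, 2.78 to 5.64 and 2.6 to 5.77 at the 3 times. Pcdhga9 was at 4.88 to 7.21 CPM and then 1.12 to 3.19, 1.77 to 2.51 and 1.45 to 4.57. Pcdhgb7 was at 5.96 to 8.05 CPM and then 3.21 to 4.58, 2.4 to 5.03 and 3.24 to 4.8, so these 4 genes kept below their controls in every lasered library. Pcdhga8 had the smallest p of the gamma genes on days 3 and 7. It was at 3.21, 2.49, 3.87 and 2.66 CPM in the controls, 0.734, 1.57, 0.727 and 1.25 on day 3, 1.07, 0.579, 1.12 and 1.23 on day 7 and 1.3, 1.76, 1.21 and 1.17 on day 14. No lasered library reached the lowest control. Its log2 fold change was -1.51 ± 0.30 at day 3 (SE, edgeR adjusted p = 0.0126) and -1.60 ± 0.30 at day 7 (edgeR adjusted p = 0.00997). Pcdhga7 was called at day 3 only (-1.12, edgeR adjusted p = 0.039, lost in each run that left out 1 library) and Pcdhga6 at day 7 only (-1.23, edgeR adjusted p = 0.0378), a contrast between times that was tested only through day 7 against day 3, where neither passed. Over all 20 tested gamma genes the log2 fold change ran from -1.69 to -0.21 at day 3 and was below 0 at each of the 3 times.

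All 12 lasered libraries were below every control for 10 of 11 tested alpha genes, 1 of 21 beta genes and 10 of 20 gamma genes, beside 9.41% of all tested genes. The 10 alpha genes include Pcdha6 and Pcdha1, which passed the filter only through the controls.

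Levels of neuronal markers moved with the laser as well. In bulk tissue, fewer cells of a type and less RNA per cell cannot be told apart. The 16 pan-neuronal genes summed to 3380 to 3810 CPM in controls, 1820 to 2750 on day 3, 2290 to 3150 on day 7 and 796 to 3570 on day 14, with none at 0. The 13 ganglion cell genes summed to 725 to 1030 CPM in controls, 354 to 581 on day 3, 377 to 591 on day 7 and 115 to 900 on day 14. Of these ganglion cell genes 4 were called lower at day 3, beside 7.77% of all tested genes, and their median log2 fold change was -1.25, beside 0.01. The 12 amacrine genes summed to 1360 to 1610 CPM in controls and 765 to 1090 at day 3, and the 6 starburst amacrine genes to 74.1 to 97.9 and 59 to 96.6. Though the starburst sums overlapped, the median log2 fold change at day 3 was -0.66 for the starburst genes and -0.515 for the amacrine genes, beside 0.01. Per 1000 CPM of pan-neuronal genes, the alpha sum was 10.4 ± 0.606 CPM in control, 4.35 ± 0.935 on day 3, 3.58 ± 1.05 on day 7 and 5.52 ± 2.76 on day 14 (SD, n = 4), and no lasered library reached the lowest control, at 9.83. On that scale the beta sum was 55.4 ± 3.78 CPM in control and 66.3 ± 6.02, 57 ± 7.38 and 95.8 ± 84.4 at days 3, 7 and 14 (SD, n = 4). The gamma sum was 45.9 ± 2.91 in control and 36.3 ± 3.95, 28.5 ± 4.82 and 48.1 ± 42.9 at the same times. Day 14 replicate 1 stood above every control, at 222 for beta and 111 for gamma, while the other day 14 libraries had gamma at 16.3 to 34.5. The highest alpha value after the laser on that scale, 8.96, came from day 14 replicate 1, whose pan-neuronal sum was the lowest. The part of neuron content in the members' differences was not tested beyond these ratios.

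Lens and ocular surface transcripts were higher on average after the laser, but unevenly between libraries. The 21 lens genes summed to 202 to 14200 CPM in controls, with Cryga at 0, and 30600 to 57600 at day 3. At days 7 and 14 they summed to 10.6 to 39600 and 740 to 156000, overlapping with the controls. The 13 cornea and conjunctiva genes summed to 2600 to 8260 CPM in controls and 4940 to 34700, 5410 to 27300 and 5950 to 20400 at the 3 times, with overlap throughout. With scores of both lists as covariates edgeR called 5 members on day 3, 9 on day 7 and 1 on day 14, and medians at day 3 were -1.30 for alpha, 0.03 for beta and -0.65 for gamma. The alpha and gamma medians kept their sign and the beta median did not. Without day 14 replicate 1, the library richest in lens, the day 14 count stayed at 1.

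Exon length moved with the laser too. Among tested protein-coding genes outside the clusters, the median log2 fold change at day 3 was 0.36 for exon lengths under 2000 bases, 0.16 from 2000 to 4000, -0.01 from 4000 to 6000, -0.10 from 6000 to 8000 and -0.29 from 8000 on. The share called lower rose along the same bands from 1.02% to 23.5%. Median exon lengths of the members were 5356 bases for alpha, 3714 for beta and 4882 for gamma. A median of 2475 exon bases of an alpha gene belonged to no other annotated gene. With each library's trend of count with exon length removed, edgeR called 13 members on day 3, 13 on day 7 and 1 on day 14, all of them among those called with no such step, and the alpha medians were -1.73, -1.85 and -1.46.

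**Figure D5:**
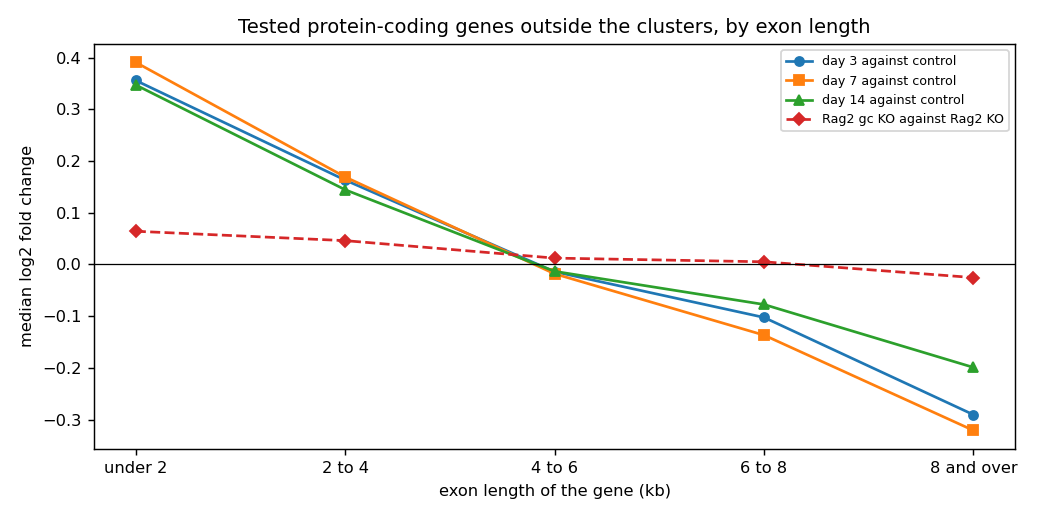
Median log2 fold change (edgeR) of tested protein-coding genes outside the clusters, by exon length in kilobases, for 4 comparisons. The 3 laser comparisons run from about 0.35 to 0.39 in the shortest band down to -0.20 to -0.32 in the longest, and the Rag2 comparison from 0.06 to -0.03.

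Genes around and behind the clusters were taken from lists of known roles. Of 13 neighbouring genes of other families beside the clusters, 1 was called, higher, at day 3 and 0 at days 7 and 14. Of all tested genes, 6.97%, 3.62% and 0.0322% were called higher at the 3 times. The called neighbour was Arap3, a GTPase-activating protein of vessel growth, which rose by 1.42 on the log2 scale (edgeR adjusted p = 0.0478). Median log2 fold changes of the 13 neighbours were 0.14, 0.11 and -0.01. Of 21 regulators of promoter choice, 6 were called lower on day 3, 7 on day 7 and 1 on day 14, and 0 higher, beside 7.77%, 6.9% and 0.241% of all tested genes called lower. Among genes with exon lengths of 8000 bases or more outside the clusters, 23.5% were called lower at day 3. Tet3, which oxidises methylated cytosine, fell by 0.72, 0.82 and 0.59 on the log2 scale at the 3 times (edgeR adjusted p = 0.00527, 0.00552 and 0.0383). Nipbl, which loads cohesin on DNA, fell by 0.64 and 0.73 at days 3 and 7, and the cohesin subunit Stag2 by 0.70 and 0.60. The methyltransferase Dnmt3a, the cohesin cofactor Pds5b and Smchd1, a repressor of the clusters, were also called lower at both times, and the cohesin release factor Wapl at day 7. Ctcf, Rad21 and the other 12 regulators were called at no time.

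Of 21 partners of the protocadherin cytoplasmic part, 2 were called higher and 2 lower at day 3, beside 6.97% and 7.77% of all tested genes. Pdcd10, which binds clustered protocadherins in neuronal death, and Marcks, through which gamma protocadherins act on dendrites, rose at day 3 by 0.41 and 0.38 on the log2 scale (edgeR adjusted p = 0.0343 and 0.0362). Cyfip2, of the WAVE complex that drives actin branching, and Nlgn2, an adhesion protein of inhibitory synapses, fell by 0.88 and 0.36 (edgeR adjusted p = 0.0333 and 0.04). At day 7 Pdcd10 and Nlgn2 were called in the same directions, beside 3.62% of all tested genes called higher and 6.9% called lower. At day 14 none of the 21 was called, by edgeR. Non-clustered protocadherins, lone adhesion genes with no promoter choice, were called lower for 7 of 12 tested on day 3, 3 on day 7 and 0 on day 14, beside the same 7.77%, 6.9% and 0.241%. Pcdh10, the protocadherin needed for striatal and thalamic axons, fell from 55.2 ± 2.4 to 21.6 ± 3.77 CPM at day 3 (SD, n = 4, edgeR adjusted p = 0.025). Of 17 other self-avoidance and lamination genes, 2 were called lower on day 3, 1 on day 7 and 0 on day 14, beside the same shares. Robo2, an axon guidance receptor, fell by 1.04 at day 3 and 0.95 at day 7, and Megf11, a spacing receptor of horizontal cells, by 0.42 at day 3.

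Between Rag2-/-γc-/- and Rag2-/- eyes at day 3, edgeR called 0 of 52 members, beside 0.465% of all tested genes called, and DESeq2 and limma voom also called 0. At an unadjusted p under 0.05 edgeR had 7 members, all lower in Rag2-/-γc-/- eyes, and the smallest adjusted p was 0.171. The share of all tested genes at that unadjusted cut is not given here, so the 7 cannot be read as an excess. The summed alpha level was 33.4 ± 3.9 CPM in Rag2-/- and 27.7 ± 1.78 in Rag2-/-γc-/- (SD, n = 3), with Rag2-/- replicate 3 (28.9) inside the range of the other genotype. The beta sums were 247 ± 10.3 and 232 ± 17.2 CPM and the gamma sums 140 ± 3.64 and 129 ± 8.01 (SD, n = 3), the beta sums overlapping and the gamma sums meeting at 138. Median log2 fold changes were -0.40 for alpha, -0.11 for beta and -0.16 for gamma. Groups did not overlap, with Rag2-/-γc-/- lower, for 4 of 11 alpha, 4 of 21 beta and 4 of 20 gamma genes, beside 10.6% of all tested genes.

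The 7 members with an unadjusted p under 0.05 were Pcdha2, Pcdha3, Pcdhb2, Pcdhb3, Pcdhb5, Pcdhgb1 and Pcdhgb6. Pcdha2 was at 3.36, 3.51 and 2.61 CPM in Rag2-/- and 2.01, 1.4 and 2.02 in Rag2-/-γc-/-, and Pcdhb2 at 2.64, 3.95 and 2.38 and at 1.75, 1.04 and 1.63. Neither gene's groups overlapped, but neither passed, with log2 fold changes of -0.80 ± 0.26 for Pcdha2 and -1.02 ± 0.31 for Pcdhb2 (SE, edgeR adjusted p = 0.224 and 0.204). The nearby Pcdhb3 and Pcdhb5, chosen here after their values were seen, had -0.55 ± 0.16 and -0.60 ± 0.17 (SE, edgeR adjusted p = 0.187 and 0.171). Pcdha6 was at 2.41, 1.5 and 1.32 CPM in Rag2-/- and 1.08, 1.73 and 0.637 in Rag2-/-γc-/-, which overlap. Pcdhgc4 overlapped as well, at 20.2, 23.4 and 19.9 CPM against 21.2, 16.2 and 20.3, as did Pcdhac2, at 11.1, 12.1 and 9.13 against 8.79, 8.71 and 13.2. In this pair the pan-neuronal sums were alike, 4210 to 4420 CPM and 4340 to 4620, and the phagocyte sums were 274 to 364 and 392 to 836. The alpha sum was 11.8% to 14.7% of the beta sum in Rag2-/- and 11.7% to 12.3% in Rag2-/-γc-/-, and the gamma sum 53.5% to 58.8% and 54.8% to 56.4%, so both ratios overlapped.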

How the data were processed

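Bulk RNA of mouse retina and choroid was analysed in 22 libraries. The authors deposited raw counts per gene, counted with featureCounts 1.5.0-p3 on mm10, per the submitters' processing notes. Strandedness, aligner and annotation release were each not given in the sources used here. The start and end of all 57 members equal those of GENCODE M21, from which exon bases were taken. The FPKM values beside them were not used.

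Counts were tested with edgeR 4.0.16 (quasi-likelihood, robust, R 4.3.3) after filterByExpr (minimum count 10, minimum total 15) and TMM scaling, with 1 fit over the 16 wild-type libraries and 1 over the 6 Rag2 libraries. That left 18657 and 18923 genes, over which p-values were Benjamini-Hochberg adjusted. The threshold was 0.05. No test crosses the 2 tables. CPM uses TMM-scaled library sizes. Alternatives were DESeq2 1.42.0, limma 3.58.1 voom, other scalings, no filter, a replicate block, covariates (mean log2 CPM of the lens and cornea lists) and left-out libraries. Removal of the exon length trend was chosen after seeing the data. The fitting scripts were tested on simulated data.

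The members and lists were chosen with earlier results of these data known. Named members are those called in any of 6 comparisons, the 3 of each cluster with the highest control CPM, the C-type isoforms, Pcdha6 and Pcdhb2. Members or genes named beyond these, and the 9 members plotted, were chosen after their values were seen. No 2 libraries of a group agreed within sampling noise. One gene of the regulator list is not reported here.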

Additional observations from a re-analysis of the deposited data

Results flagged for a closer look

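Among 108 groups of 4 wild-type values (the 3 cluster sums and the named members in each group), 1 held a library far from the other 3. Pcdhgb6, a gamma B isoform, was at 4.04 CPM in day 14 replicate 3, beside 7.43 to 8.04 in the other day 14 libraries, a gap of 0.848 of the group's range. Chance alone gives about 1 in 20 such groups.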

How the results depend on the processing

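Alternatives gave these counts of members called lower, and 0 higher, at days 3, 7 and 14 beside 18, 17 and 1. DESeq2 gave 25, 30 and 19, limma voom 20, 26 and 1, only the 2 groups compared 30, 28 and 0, and lens and cornea covariates 5, 9 and 1. Library totals gave 18, 15 and 0, no filter 13, 12 and 1, and the exon length step 13, 13 and 1. With replicate 3 of day 3, replicate 2 of day 7 and replicate 1 of day 14 left out at once the counts were 19, 21 and 7. Leaving out 1 library gave 2 to 17, 2 to 26 and 0 to 2. The share of all tested genes called under each alternative is not given here, so a shift in these counts cannot be called particular to the members. Why the counts differ was not tested. Day 7 against day 3, day 14 against day 3 and the Rag2 pair gave 0 under every alternative run.

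The replicate numbers were not used to pair the libraries in the main fit. Same-numbered deviations correlated at -0.0675 to 0.301 between day 3 and control and at -0.27 to 0.325 between day 7 and control. They correlated at -0.506 to 0.368 between day 7 and day 3 and at -0.224 to 0.473 between day 14 and day 3. Such correlations cannot show whether same-numbered libraries were paired. With a replicate block edgeR called 19, 15 and 0 members at days 3, 7 and 14.

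The summed alpha, beta and gamma ratios kept their direction under library totals, DESeq2 size factors, subsets of members and left-out libraries. They were not run with covariates, under which the beta median of single genes turned to 0.03, 0.04 and 0.02 at days 3, 7 and 14. Signs were checked gene by gene for the named members only. Those that changed sign were near 0 in the main edgeR fit, and none was called. With covariates other beta genes must have changed sign too, since 20 of 21 were below 0 at day 3 in the main fit. With the exon length step Pcdhb17 was at 0.0028 and Pcdhb22 at 0.032 at day 3, and Pcdhb22 at 0.050 at day 14. With covariates Pcdhb17 was at 0.089, 0.066 and 0.012 at days 3, 7 and 14, and Pcdhb20 at 0.27 at day 3 and 0.18 at day 14. Without those 3 libraries Pcdhb17 was at 0.063 and Pcdhb20 at 0.041 at day 3, and Pcdhb20 at 0.060 at day 14. Leaving out 1 library gave Pcdhb17 -0.099 to 0.095, -0.28 to 0.030 and -0.23 to 0.053 at the 3 times. It gave Pcdhb20 -0.24 to 0.027, -0.043 to 0.13 and -0.20 to 0.060, and Pcdhb22 -0.20 to 0.051 at day 14. In the Rag2 pair it gave Pcdha9 -0.30 to 0.0089, Pcdhac2 -0.30 to 0.027, Pcdhb20 -0.055 to 0.16, Pcdhga6 -0.18 to 0.12, Pcdhga9 -0.017 to 0.27 and Pcdhgc3 -0.0040 to 0.13. Depth limits the alpha isoforms, whose tested genes had 0 to 104 counts in a lasered library, with a median of 11.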

Other observations

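Pcdhgb8, a gamma row annotated as a polymorphic pseudogene and so outside the members, was at 3.28 ± 0.454 CPM in control, 2.18 ± 0.848 on day 3, 2.06 ± 1.02 on day 7 and 2 ± 1.33 on day 14 (SD, n = 4).

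The make-up of the gamma cluster differed between the wild-type and the Rag2 table. Pcdhgb6 held 8.04% ± 0.268 of the gamma sum in wild-type controls (SD, n = 4), 8.27% ± 0.995 at day 3, and 3.25% ± 1.34 in Rag2-/- eyes at day 3 (SD, n = 3). Pcdhga3 held 5.88% ± 0.514, 6.51% ± 1.71 and 2.94% ± 0.653 in the same order, and Pcdhgb1 4.42% ± 0.484, 4.14% ± 0.709 and 2.3% ± 0.332. These genes were chosen after their values were seen. The 13 cornea and conjunctiva genes summed to 2600 CPM or more in every wild-type library and to 2.37 to 10.3 in the Rag2 libraries. Genotype, strain background and table cannot be told apart here, and no test was made.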
